A study of Homo sapiens with 3 samples.

Results

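The mucins described here are 10 genes, MUC1, MUC2, MUC3A, MUC4, MUC5AC, MUC5B, MUC12, MUC13, MUC17 and MUC20, chosen by name out of 60504 genes with an Ensembl identifier in the deposited table. All 10 symbols matched 1 identifier each. The data came from DLD1, an established human colorectal cancer cell line. There were 3 RNA-Seq libraries, 1 from wild type cells (DLD1 control cells) and 1 from each of 2 samples labelled DLD1 KO1 and DLD1 KO2, in which BEX2 was knocked out with CRISPR/Cas9 (BEX2-/- DLD1, called clone 1 and clone 2 here). The study describes the BEX2 allele as a short frameshifting deletion at the start of translation, without saying which of the samples was sequenced, and no treatment was given. The methods state that clones were picked by sequencing after editing with a single target sequence. Whether KO1 and KO2 came from separate clones or from separate cultures of 1 clone was not given in the sources used here, so an effect of the knockout and one of the clone or culture cannot be told apart. The wild type group had no replicate. BEX2 itself was listed at 0 FPKM in all 3 libraries and gave no check of the labels.

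Mucins are large glycoproteins that carry dense O-linked sugar chains on repeats rich in proline, threonine and serine. Secreted gel-forming mucins build the mucus that covers the gut, and goblet cells of the normal colon are known for MUC2. Membrane-bound mucins stay anchored in the apical plasma membrane, where they form the glycocalyx of absorptive cells and can signal into the cell. Of the genes described here, 3 encode secreted mucins (MUC2, MUC5AC and MUC5B) and 7 encode membrane-bound mucins (MUC1, MUC3A, MUC4, MUC12, MUC13, MUC17 and MUC20).

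On GRCh38, the secreted mucin genes lie together on chromosome 11 between 1074875 and 1262172, all on the plus strand. MUC3A, MUC12 and MUC17 lie together on the plus strand of chromosome 7 between 100949555 and 101058745. MUC20 and MUC4 are neighbours on chromosome 3 between 195720882 and 195812277, on opposite strands. MUC13 lies elsewhere on chromosome 3 (124905442 to 124953819, minus strand) and MUC1 on chromosome 1 (155185824 to 155192916, minus strand).

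The stretch of 250 bases before the RefSeq transcription start was available for 7 of the 10 genes (GRCh38.p14). It is printed for 5 genes whose values carry the results below, written 5′ to 3′ on the strand of the gene, with matches to 4 short motifs in capitals. All motifs were searched on both strands, and their shares are of 35116 such stretches of all genes. The motif of the box near many starts is spelled TATAAA and was held by 10.7% of them. The core bound by CDX factors, spelled CATAAA, was held by 9.64%. The GC box is spelled GGGCGG and was held by 42.6%. The core bound by GATA factors is spelled TTATC and was held by 20.4%. The first and the second of these motifs differ in their first letter only and cannot match at the same place on the same strand.
MUC2, higher in clone 1 and lower in clone 2, chr11:1074624-1074873, plus strand: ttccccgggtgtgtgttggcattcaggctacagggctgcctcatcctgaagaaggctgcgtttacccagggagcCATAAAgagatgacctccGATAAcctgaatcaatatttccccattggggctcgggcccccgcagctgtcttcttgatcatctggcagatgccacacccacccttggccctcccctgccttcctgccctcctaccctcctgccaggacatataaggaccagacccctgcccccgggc
MUC12, higher in clone 1, chr7:100969315-100969564, plus strand: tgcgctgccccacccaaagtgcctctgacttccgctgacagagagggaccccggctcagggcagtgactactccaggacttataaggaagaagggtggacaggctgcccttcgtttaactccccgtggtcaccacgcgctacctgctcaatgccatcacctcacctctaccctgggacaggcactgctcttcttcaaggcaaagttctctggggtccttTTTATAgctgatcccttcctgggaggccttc
MUC3A, higher in both clones, chr7:100949284-100949533, plus strand: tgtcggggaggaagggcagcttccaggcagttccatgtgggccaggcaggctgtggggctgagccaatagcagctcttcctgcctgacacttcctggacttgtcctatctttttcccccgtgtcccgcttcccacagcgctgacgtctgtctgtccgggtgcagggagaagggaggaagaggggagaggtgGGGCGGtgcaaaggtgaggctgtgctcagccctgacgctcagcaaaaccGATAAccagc
MUC13, the most abundant, chr3:124934752-124935001, minus strand: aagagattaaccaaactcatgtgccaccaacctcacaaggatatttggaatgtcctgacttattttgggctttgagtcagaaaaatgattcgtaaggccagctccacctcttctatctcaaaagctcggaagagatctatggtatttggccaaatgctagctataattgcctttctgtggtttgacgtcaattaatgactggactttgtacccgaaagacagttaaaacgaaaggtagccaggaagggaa
MUC1, lower in clone 1, chr1:155192916-155193165, minus strand: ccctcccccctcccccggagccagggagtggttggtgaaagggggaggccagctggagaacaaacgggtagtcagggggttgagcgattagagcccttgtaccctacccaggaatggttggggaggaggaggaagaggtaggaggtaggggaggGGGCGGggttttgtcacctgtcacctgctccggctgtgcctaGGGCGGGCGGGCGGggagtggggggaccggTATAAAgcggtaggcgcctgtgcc

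The printed stretches shared little. MUC2 held 1 CDX core, 176 bases before the start, and 1 GATA core. MUC12 held TATAAA on the opposite strand only, printed as TTTATA 31 bases before the start. MUC3A held a GC box and a GATA core, and MUC1 a TATA box and 4 GC boxes, 3 of which overlap each other. The MUC13 stretch held none of the 4 motifs and had 41.6% G and C, compared with 66.0% for MUC1 and a median of 58.0% over all genes. The MUC13 start used by RefSeq lies inside the longer gene of GENCODE, so this stretch precedes 1 of its starts. These matches describe letters in a window, and no binding was measured.

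Values are FPKM, in which the reads of a gene are divided by the length of its exons and by the depth of the library, so that levels of different genes can be compared per length. Multiplied by the exon length of GENCODE release 29, the FPKM values of all 10 mucins came out as whole reads in all 3 libraries. The depths found in this way were 47458851 reads for the wild type library, 35593989 for clone 1 and 47722374 for clone 2. Intervals given below are exact 95% intervals on these reads. They cover counting error only and say nothing of the spread between cultures. For MUC17, listed at 0, the limit that a count of 0 allows (3 reads) was 0.00434 FPKM for the wild type, 0.00578 for clone 1 and 0.00431 for clone 2.

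As a check of the cell type, 10 of 11 epithelial markers reached a mean of 1 FPKM, and their summed level was between 1623 and 1856 FPKM in the 3 libraries. In clone 2, however, KRT20, VIL1, CDX1, CEACAM5 and LGALS4 were each under 1 FPKM. CDX1 was also under 1 FPKM in the wild type (0.455) and clone 1 (0.815), and CEACAM5 in the wild type (0.742). None of 16 markers of fibroblasts, leukocytes, endothelium or enteroendocrine cells reached a mean of 1 FPKM. SYP of enteroendocrine cells was between 0.338 and 0.485 FPKM. The fibroblast list summed to between 0.162 and 0.645 FPKM, with COL3A1 at 0, and PTPRC and LYZ of leukocytes, CDH5 of endothelium and CHGA of enteroendocrine cells were at 0 as well.

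The mucin mRNA of DLD1 cells was made up almost wholly of MUC13, MUC5AC and MUC20. These 3 genes held 96.8% of the summed mucin FPKM in the wild type, 97.8% in clone 1 and 96.1% in clone 2, and they were the only mucins at 1 FPKM or more in any library. The order was MUC13, then MUC5AC, then MUC20 in every library, with counting intervals that did not overlap. MUC1 was between 0.310 and 0.991 FPKM, and the other 6 genes were between 0 and 0.401 FPKM in every library.

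**Figure D1:**
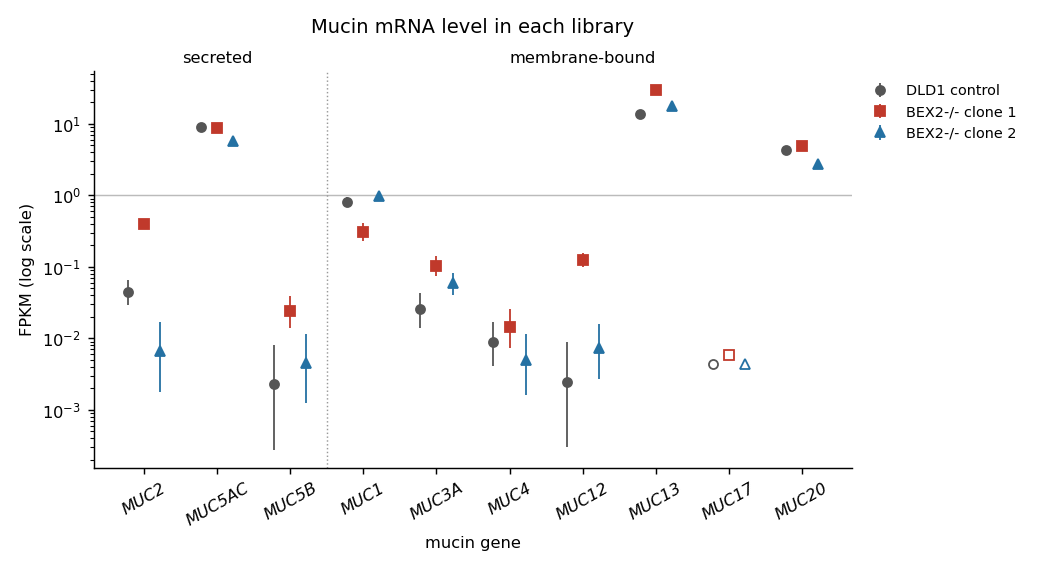
FPKM of the 10 mucins on a log axis in the wild type (circles), BEX2-/- clone 1 (squares) and BEX2-/- clone 2 (triangles), with exact 95% counting intervals. Open symbols stand at the limit of 3 reads for MUC17, which was listed at 0, and the grey line marks 1 FPKM, which MUC5AC, MUC13 and MUC20 exceeded in every library.

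Below the leading genes the order of the levels was less certain. In DLD1 control cells MUC1 was followed by MUC2, MUC3A, MUC4, MUC12 and MUC5B, and from MUC2 on, each interval overlapped that of the next gene. In clone 1 MUC2 came directly after MUC20, and its interval (0.345 to 0.464 FPKM) overlapped that of MUC1 (0.231 to 0.406 FPKM). MUC12 and MUC3A came next in clone 1, again with overlapping intervals, followed by MUC5B and MUC4. In clone 2 MUC1 and then MUC3A came after MUC20, each apart from its neighbours. The intervals of MUC12, MUC2, MUC4 and MUC5B overlapped each other in clone 2 and also that of MUC17.

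MUC5AC, a gel-forming mucin best known from the stomach and airways, was nearly the only secreted mucin. It was at 9.01 FPKM in the wild type, 8.90 in clone 1 and 5.79 in clone 2 (7460, 5528 and 4825 reads). The control and clone 1 were thus at nearly the same level and clone 2 was lower. The ratio to the control was 0.988 in clone 1 (interval 0.954 to 1.02) and 0.643 in clone 2 (0.620 to 0.667). MUC5AC held between 95.4% and 99.8% of the summed FPKM of the secreted mucins.

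MUC2, the main gel-forming mucin of the normal colon, was low in all libraries and moved in opposite directions in the clones. It had 27 reads in the wild type, 181 in clone 1 and 4 in clone 2, or 0.0449, 0.401 and 0.00662 FPKM. Clone 1 was the highest and clone 2 the lowest, with no overlap of the counting intervals among the 3 libraries. MUC2 was 8.94-fold higher in clone 1 than in the control (interval 5.94 to 13.9) and 6.79-fold lower in clone 2 (2.37 to 26.7). Between the clones the difference was 60.7-fold (23.3 to 225.1). The share of MUC2 in secreted mucin FPKM was 0.496% in the wild type, 4.30% in clone 1 and 0.114% in clone 2.

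MUC5B, a gel-forming mucin of airways and salivary glands, had 2 reads in the wild type, 16 in clone 1 and 4 in clone 2. The levels were 0.00227, 0.0242 and 0.00451 FPKM. Only clone 1 stood apart, with a ratio to the control of 10.7 (interval 2.51 to 95.6). The ratio was 1.99 in clone 2 (0.285 to 21.99), so that the depth did not show a difference there.

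MUC13, a membrane-bound mucin of the intestinal surface, was the most abundant mucin. It was at 13.8 FPKM in the wild type, 29.7 in clone 1 and 17.8 in clone 2 (2289, 3697 and 2965 reads). Both clones were above the control, clone 1 more so than clone 2. The ratio to the control was 2.15 in clone 1 (interval 2.04 to 2.27) and 1.29 in clone 2 (1.22 to 1.36). The mean of the clones was 23.7 ± 8.43 FPKM (SD, n = 2), and the wild type lay below this mean by more than the SD.

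MUC20, a membrane-bound mucin known from kidney and gut epithelium, was at 4.27 FPKM in the wild type, 4.99 in clone 1 and 2.72 in clone 2 (862, 754 and 551 reads). Clone 1 was slightly above the control and clone 2 below it. The ratios to the control were 1.17 (interval 1.06 to 1.29) and 0.636 (0.570 to 0.708). MUC20 shares 1820 bases, or 42.8% of its exon length, with the non-coding gene MUC20-OT1 on the same strand, and how reads in shared exons were assigned was not given in the sources used here. MUC20-OT1 was at 1.61 FPKM in the wild type, 2.04 in clone 1 and 1.59 in clone 2. The pseudogene MUC20P1 was at 2.33, 3.90 and 3.14 FPKM. Values of MUC20 are uncertain to the extent that reads were split among these genes.

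MUC1, a membrane-bound mucin of many glandular epithelia, went the other way in clone 1. It was at 0.817 FPKM in the wild type, 0.310 in clone 1 and 0.991 in clone 2 (183, 52 and 223 reads). Clone 1 was below the other libraries. MUC1 was 2.64-fold lower in clone 1 than in the control (interval 1.93 to 3.66, which includes 2-fold). The ratio in clone 2 was 1.21, with an interval of 0.992 to 1.48 that includes 1. The exon length of MUC1 was taken over 29 annotated transcripts, which lowers its FPKM relative to a single short transcript.

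The membrane mucins of chromosome 7 are known from the brush border of the intestine. MUC12 had 2 reads in the wild type, 76 in clone 1 and 6 in clone 2 (0.00246, 0.125 and 0.00734 FPKM). Clone 1 was far above the other libraries, which overlapped. The ratio of clone 1 to the control was 50.7 (interval 13.6 to 426.0), the highest of all mucins, and rests on the 2 control reads. Against clone 2 it was 17.0 (7.45 to 47.7). MUC3A had 14, 42 and 32 reads (0.0259, 0.104 and 0.0590 FPKM). Both clones were above the control, with ratios of 4.0 in clone 1 (2.14 to 7.93) and 2.27 in clone 2 (1.18 to 4.61, which includes 2). GENCODE release 29 holds 0 genes named MUC3B, and reads of such a near-identical copy could not be told apart from those of MUC3A. MUC3A shares 739 exon bases, 6.50% of its exon length, with the antisense gene AC254629.1, at 0, 0.0110 and 0.0246 FPKM, and whether strand was used in counting was not given in the sources used here. MUC12 shares 194 exon bases, 1.13% of its exon length, with the antisense gene AC105446.1. This gene was at 0 FPKM in the wild type, 0.0690 in clone 1 and 0.206 in clone 2, above the level of MUC12 itself in clone 2, and its part in the reads of MUC12 was not tested. MUC17 was listed at 0 in every library.

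MUC4, a large membrane-bound mucin that binds the receptor ERBB2, had 9 reads in the wild type, 11 in clone 1 and 5 in clone 2 (0.00889, 0.0145 and 0.00491 FPKM). The libraries overlapped. The ratios of 1.63 in clone 1 (interval 0.614 to 4.45) and 0.552 in clone 2 (0.145 to 1.84) have intervals that include 1, so that the depth showed no difference.

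**Figure D2:**
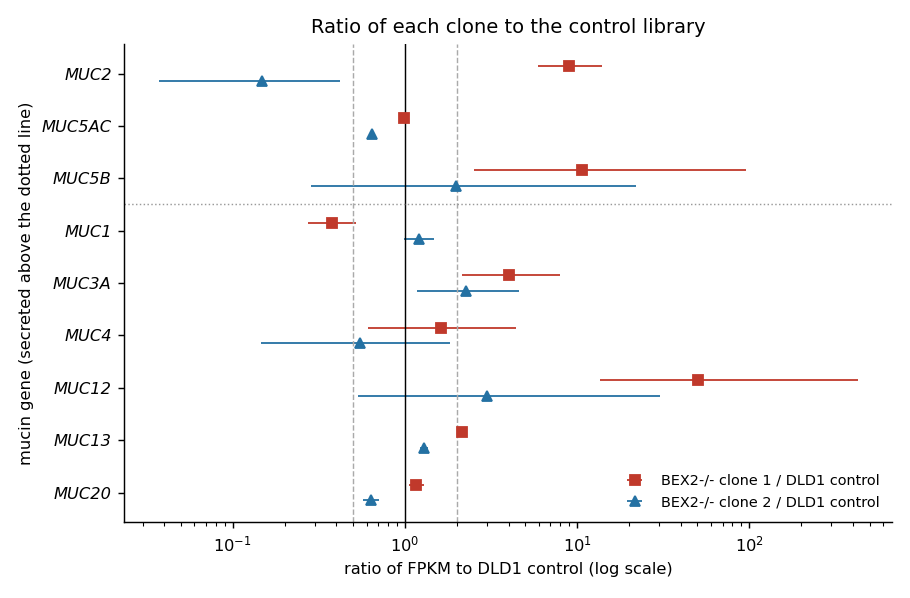
Ratio of FPKM in BEX2-/- clone 1 (squares) and clone 2 (triangles) to DLD1 control cells on a log axis, with exact 95% counting intervals, for the 9 mucins with reads. Dashed lines mark 2-fold. MUC2 lies at 8.94 in clone 1 and 0.147 in clone 2, and MUC12 at 50.7 in clone 1.

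To ask which mucins differed between BEX2-/- and control cells, ratios of FPKM + 1 were taken, and a change counted at 2-fold among genes for which the average of the control and the mean clone level reached 1 FPKM. This scale understates changes of low genes. Only 3 of the 10 mucins, MUC5AC, MUC13 and MUC20, passed this filter. In clone 1, 1 of them (MUC13, with a log2 ratio of 1.05) counted as changed, where 2.02% of all 11675 genes did, 1.06% higher and 0.959% lower. In clone 2, 0 of 3 did, where 2.06% of all genes did, 1.33% higher and 0.737% lower. None of the 3 changed in the same direction in both clones (0.325% of all genes), and none differed 2-fold between the clones (4.19% of all genes). The limma test of both clones against the control, which borrows the spread between the clones for the lone control, called 0 of 11675 genes at an adjusted p-value of 0.05 and 0% of all genes, and 139 genes had an unadjusted p-value under 0.05, 0 of them mucins. For MUC13 the log2 fold change was 0.70 with a standard error of 0.37 (adjusted p-value 1 by limma). It was -0.29 for MUC5AC and -0.16 for MUC20.

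Ratios of FPKM without a pseudocount were also taken, with values under 3 reads set to 3 reads, among genes with at least 20 reads over the 3 libraries. Here 9 of the 10 mucins were measured, all but MUC17. MUC12 and MUC5B reached 20 reads only through clone 1, so a difference was built into their selection. MUC4 (9, 11 and 5 reads) also reached 20 reads only with clone 1, its highest library. In clone 1, MUC2, MUC5B, MUC3A, MUC12 and MUC13 were at least 2-fold higher than in the control and MUC1 at least 2-fold lower, 6 of 9 genes, where 12.8% of 18022 genes passed, 6.54% higher and 6.23% lower. In clone 2, MUC3A was at least 2-fold higher and MUC2 at least 2-fold lower, 2 of 9 genes, where 14.2% of all genes passed, 7.35% higher and 6.82% lower. MUC3A alone passed in the same direction in both clones, where 4.03% of all genes did, 2.31% higher. MUC2 alone passed in opposite directions, where 1.59% of all genes did. Between the clones 5 of 9 mucins differed at least 2-fold, where 18.1% of all genes did, 9.32% higher and 8.82% lower in clone 2. MUC2, MUC5B, MUC4 and MUC12 were lower in clone 2 than in clone 1, and MUC1 was higher. For MUC4 the ratio of clone 2 to clone 1 was 0.339. Its interval of 0.0923 to 1.06 includes 1, so that the depth did not show a difference. All comparisons with the control share its 1 library.

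**Figure D3:**
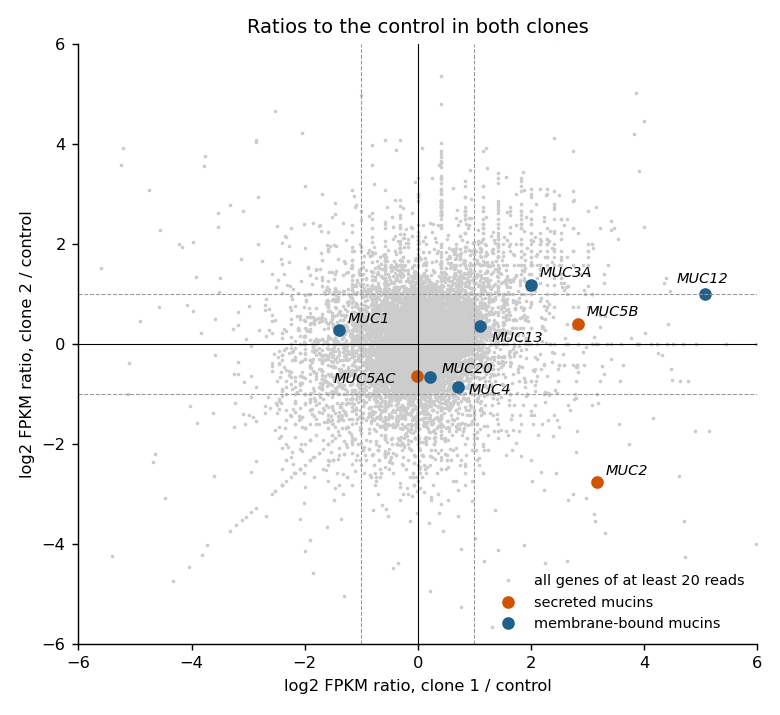
Log2 ratio of FPKM to DLD1 control cells in clone 1 (horizontal axis) and clone 2 (vertical axis), values under 3 reads set to 3 reads, for 18022 genes of at least 20 reads (grey), secreted mucins (orange) and membrane-bound mucins (blue). Dashed lines mark 2-fold, and 7 genes lie outside the axes. MUC2 lies at the lower right, higher in clone 1 and lower in clone 2.

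Secreted and membrane-bound mucins were then compared. The summed level of the secreted mucins was 9.06 FPKM in the wild type, 9.33 in clone 1 and 5.81 in clone 2. That of the membrane-bound mucins was 18.9, 35.2 and 21.5 FPKM. Membrane-bound mucins thus held 67.6% of mucin FPKM in the wild type, 79.1% in clone 1 and 78.8% in clone 2. The mean of the clones was 78.9% ± 0.211 (SD, n = 2), and the spread among control cells is unknown.

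The clones reached similar shares with different class sums. MUC13 was above the control in both, 2.15-fold in clone 1 and 1.29-fold in clone 2, while MUC5AC was lower in clone 2 only. In clone 1 the membrane-bound sum was 1.86-fold that of the control while the secreted sum was 1.03-fold. In clone 2 the membrane-bound sum was 1.14-fold that of the control and the secreted sum 1.56-fold lower. The ratio of MUC13 to MUC5AC within a library, which no scaling between libraries can change, was 1.53 in the wild type (interval 1.46 to 1.60), 3.33 in clone 1 (3.20 to 3.48) and 3.06 in clone 2 (2.93 to 3.21). It was higher in both clones than in the control by more than counting error.

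**Figure D4:**
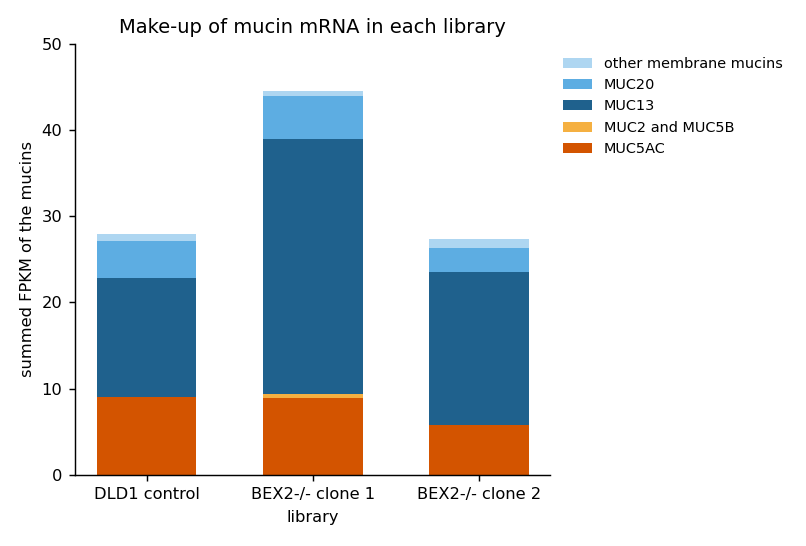
Summed FPKM of the mucins in the wild type, clone 1 and clone 2, as stacked bars of the secreted (orange) and membrane-bound (blue) genes. The bars reach 28.0, 44.5 and 27.3 FPKM, and MUC13 is the tallest part of each.

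Gene by gene, the classes did not separate. On the log2(FPKM + 1) scale the median ratio over all 3 secreted mucins was 0.03 in clone 1 and -0.05 in clone 2, and over all 7 membrane-bound mucins it was 0.11 and 0.01, beside 0.04 and -0.01 for all genes past the filter. Without a pseudocount the median of the 3 secreted genes was 7.11-fold higher than the control in clone 1 and 1.55-fold lower in clone 2. For 6 membrane-bound genes it was 1.87-fold and 1.25-fold higher. Genes of each class lay on either side of the control, and the ratios farthest from 1 in the secreted class were those of MUC2 and MUC5B, both under 1 FPKM.

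Mucins are made and packed with the help of other genes, taken from lists of general knowledge. Of 24 goblet cell and mucus layer genes, 10 passed the filter. In clone 1, 3 of them were at least 2-fold higher (TFF1, TFF3 and BCAS1) and 0 lower, where 1.06% of all genes were higher and 0.959% lower. In clone 2, 0 were higher and 2 lower (TFF1 and SPINK4), where 1.33% of all genes were higher and 0.737% lower. TFF1, a trefoil peptide secreted with mucins, was at 70.9 FPKM in the wild type, 181.5 in clone 1 and 7.04 in clone 2. TFF3, the trefoil peptide of intestinal goblet cells, was at 13.0, 35.7 and 6.21 FPKM. Both thus had the order of MUC2, highest in clone 1 and lowest in clone 2. At the other end of the list FOXA2, a transcription factor of goblet cell differentiation, was at 1.31, 0.853 and 2.70 FPKM, and KLF4, another, at 6.94, 13.5 and 9.70 FPKM. The median log2 ratio of the list was 0.57 in clone 1 and -0.49 in clone 2. ATOH1, which starts the secretory lineage, had 1, 1 and 0 reads, and CLCA1, ITLN1 and RETNLB were at 0 in all libraries. BCAS1 and SPINK4 were named after their values were seen. BCAS1 was under 1 FPKM in the wild type and clone 2 and passed the filter only through clone 1. Its rise in clone 1 was thus built into its selection.

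Of 32 enzymes that build O-linked glycans, 18 passed the filter, and 1 of these was at least 2-fold lower than the control in clone 1 (0.959% of all genes) and 0 changed in clone 2 (2.06% of all genes). The gene was FUT3, the Lewis fucosyltransferase, at 5.12 FPKM in the wild type, 1.69 in clone 1 and 3.03 in clone 2. The median log2 ratio was 0.20 for clone 1 and 0.08 for clone 2. Among the enzymes past the filter, clone 2 was highest relative to clone 1 for GCNT1 and ST6GALNAC4. GCNT1, which forms the core 2 branch, was at 1.90, 1.65 and 4.52 FPKM, and the sialyltransferase ST6GALNAC4 at 1.65, 0.812 and 2.59 FPKM. Clone 2 was lowest for the sialyltransferase ST3GAL4 (5.40, 9.71 and 4.77 FPKM) and for GALNT12, which starts O-glycans in the colon (11.05, 13.4 and 7.42 FPKM). FUT3 and ST3GAL1 were named after their values were seen. ST3GAL1, a sialyltransferase under the filter, was at 0.403, 0.142 and 2.34 FPKM, 5.81-fold above the control in clone 2. Without a pseudocount, 3 of 30 enzymes were at least 2-fold higher in clone 1 and 5 lower. Of all genes with at least 20 reads, 6.54% and 6.23% were. In clone 2, 7 of 30 were higher and 0 lower, where 7.35% and 6.82% of all genes were. Some of the 30 enzymes had fewer than 20 reads.

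**Figure D5:**
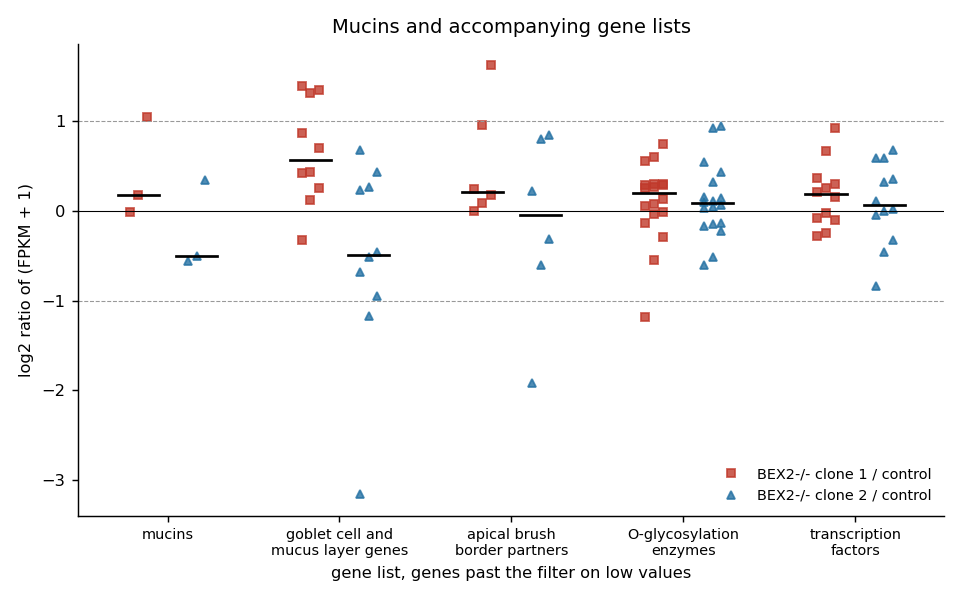
Log2 ratio of (FPKM + 1) to DLD1 control cells in clone 1 (squares) and clone 2 (triangles) for the 3 mucins past the filter on low values and for the genes of 4 accompanying lists past it. Black bars are medians and dashed lines mark 2-fold. The median of the goblet cell list is 0.57 in clone 1 and -0.49 in clone 2.

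Of 14 apical brush border partners of membrane mucins, 6 passed the filter, and 1 of these, VIL1, rose past 2-fold in clone 1 and fell past it in clone 2, where 0.3% of all genes changed in opposite directions. VIL1 encodes villin, which bundles actin in microvilli, and was at 3.61 FPKM in the wild type, 13.2 in clone 1 and 0.221 in clone 2. LGALS3, the galectin that binds mucins at the cell surface, was at 167.2, 324.9 and 109.8 FPKM. Clone 2 stood highest relative to clone 1 for GOPC, a Golgi adaptor (9.89, 10.6 and 18.0 FPKM), and for EPS8, an actin regulator of microvilli (9.42, 11.3 and 17.7 FPKM). The median log2 ratio of the list was 0.21 in clone 1 and -0.04 in clone 2.

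Among 16 transcription factors known to regulate mucin genes, 12 passed the filter and 0 changed at least 2-fold in either clone, where 2.02% and 2.06% of all genes did. Among those past the filter, clone 2 was lowest relative to clone 1 for HES1 and CDX2. HES1, a Notch target that restrains the secretory lineage, was at 13.7, 15.4 and 7.20 FPKM. CDX2, the intestinal homeobox factor that activates MUC2, was at 33.3, 43.2 and 24.0 FPKM. Clone 2 was highest for NFKB1 (10.99, 9.13 and 17.0 FPKM) and STAT3 (7.001, 6.89 and 11.1 FPKM). The median log2 ratio was 0.19 in clone 1 and 0.07 in clone 2. Without a pseudocount, 1 of 13 factors was at least 2-fold higher in clone 1 (EHF, 2.01-fold) and 0 lower. Of all genes with at least 20 reads, 6.54% and 6.23% were. In clone 2, 0 were higher and 1 lower (CDX1, under the filter, with 38, 51 and 7 reads), where 7.35% and 6.82% of all genes were. EHF and CDX1 were named here after their values were seen. No gene of these 4 lists that passed the filter moved the same way past 2-fold in both clones. Without a pseudocount, among genes under the filter, GCNT3, which forms core 2 and core 4 branches, was higher in both clones (35, 75 and 83 reads, 2.86-fold and 2.36-fold). So was FCGBP, a protein of the mucus layer (15, 30 and 38 reads, 2.67-fold and 2.52-fold). On this scale 1 of 30 enzymes and 1 of 17 goblet cell genes were at least 2-fold higher in both clones. None of 14 brush border partners or 13 transcription factors was. Of all genes with at least 20 reads, 2.31% were, so the 4 lists together were near the share of all genes. The sets differ, because the counts of enzymes and goblet cell genes had no such limit. They held genes of fewer reads, such as B3GNT6 (2, 0 and 5) and MEP1B (0, 0 and 6).

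Some markers of differentiated colon cells had the order of MUC2, highest in clone 1 and lowest in clone 2. They shared with MUC12 the high level in clone 1 only. KRT20 was at 18.9 FPKM in the wild type, 117.1 in clone 1 and 0.931 in clone 2. The values of CEACAM5 were 0.742, 18.3 and 0.119 FPKM. Those of LGALS4 were 2.28, 60.2 and 0.119 FPKM. Of 10 epithelial markers past the filter, 4 rose past 2-fold in clone 1 (KRT20, VIL1, CEACAM5 and LGALS4), where 1.06% of all genes did, and 3 fell past it in clone 2 (KRT20, VIL1 and LGALS4), where 0.737% did. The other markers did not pass 2-fold and had no common direction. The log2 ratios of KRT18 were -0.40 (clone 1) and 0.14 (clone 2), and those of KRT19 were 0.53 and 0.69. CEACAM5 was named after its values were seen. It passed the filter only through clone 1, so its rise there was built into its selection. A change in the share of differentiated cells and a change within every cell cannot be told apart in bulk RNA, and the part of either in the mucin values was not tested.

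The pattern most like that of MUC13, the mucin past the filter that differed most between the clones on the log2(FPKM + 1) scale, was sought among all genes past the filter. Likeness was the distance between the pairs of log2 ratios to the control, which rests on 3 libraries. Among the nearest genes were GAL3ST2 at a distance of 0.068 (2.89, 6.71 and 3.96 FPKM) and MIR570 at 0.094 (11.7, 23.8 and 15.1 FPKM).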

How the data were processed

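The authors made TruSeq RNA libraries from total RNA, sequenced them on an Illumina HiSeq and deposited FPKM values per gene. The submitters' processing notes name Trim Galore 0.3.7, STAR 2.5, Cufflinks 2.2.1 and the build hg19, with no role for each, and the authors used DESeq 1.22.1 for differential expression. GENCODE release 29 (GRCh38) gave the symbols, positions and exon lengths, for 56996 of 60504 identifiers. Exon lengths of other releases, hg19 included, were not tried. The step of low FPKM values times exon length gave the depth of each library. Between 98.7% and 98.8% of the low values came out whole within 0.02 reads for genes of 1 transcript, and between 88.2% and 89.0% for genes of several, as 9 of the mucins are.

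Ratios were taken of FPKM + 1 among genes with a mean of at least 1 FPKM. The limma test used log2(FPKM + 1) of all such genes with a trended prior and Benjamini-Hochberg adjustment, and has 1 residual degree of freedom, the difference between the clones. P-values measure only the spread between these samples, which may be technical. Poisson (Garwood) intervals were used for reads and Clopper-Pearson intervals for ratios. The members and lists were chosen with earlier results of these data known. Named were the 10 members, list genes changed at least 2-fold in both clones, and in each list the 2 highest and 2 lowest genes by the log2 ratio of clone 2 to clone 1, except where stated. Some genes that these rules and lists hold are not reported here. On simulated reads, 200 of 200 genes changed 4-fold in both clones were found, and 0 of 11426 unchanged genes were called. These reads held counting error only, with no spread between cultures, and the changed genes were taken from well expressed genes. The simulation tested the code, and gives no error rate for low genes or for calls between real cultures. Alternatives are given in the closing section. Python 3.11.15 (numpy 2.4.6, pandas 2.3.3, scipy 1.17.1, matplotlib 3.10.9) and R 4.3.3 with limma 3.58.1 were used.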

Additional observations from a re-analysis of the deposited data

How the results depend on the processing

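Of the mucins past the filter, 1 counted as changed in clone 1 and 0 in clone 2, 0 in both clones and 0 between the clones. Without a pseudocount these counts were 6, 2, 1 and 5, both with no filter and with at least 20 reads in all, which are scales chosen after the data were seen. Between the clones the count was 1 with TPM scaling, by MUC1, and 2 with a 1.5-fold threshold. With each clone left out in turn, the count in the same direction was between 0 (without clone 1) and 1 (without clone 2, MUC13). By construction this is the count of the clone that remains, so it says nothing of agreement between the clones. Averaged over the clones, the median log2 ratio was -0.011 ± 0.060 (SD, n = 2) for all secreted mucins, and moved to -0.081 with a pseudocount of 0.1 FPKM and to 1.10 without one. For all membrane-bound mucins it was 0.06 ± 0.070 (SD, n = 2), and moved to 0.14 when 0.1 FPKM was added, 0.15 with TPM scaling and 0.61 without a pseudocount. Most members were under 1 FPKM, where a pseudocount of 1 FPKM by its construction shrinks a ratio. Past the filter the medians, -0.29 ± 0.38 for MUC5AC alone and 0.27 ± 0.49 for MUC13 and MUC20 (SD, n = 2), moved by less than the SD. The call of MUC13 in clone 1 stayed past 2-fold in every alternative, with a log2 ratio of 1.00 at the lowest under median-ratio scaling. The limma test called 0 genes in all 4 settings, with 129 to 1578 genes at an unadjusted p-value under 0.05. Depth limits MUC4, MUC5B, MUC12 and MUC17, with under 20 reads in at least 2 libraries. No paired analysis was possible because the groups share fewer than 2 replicate numbers.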

Other observations

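MUC6, a gel-forming mucin of the stomach encoded next to MUC2 on chromosome 11, is not among the 10 genes above but had more reads than MUC2 in the wild type. It had 155 reads in the wild type, 57 in clone 1 and 84 in clone 2, or 0.388, 0.190 and 0.209 FPKM. Both clones were below the control, with ratios of 0.490 (interval 0.355 to 0.668) and 0.539 (0.408 to 0.707). In clone 1 MUC6 was thus below the control, where MUC2 was above it. It was named after its values were seen. Of 13 other genes with mucin symbols or numbers, 3 passed the filter, CD164, OVGP1 and PODXL. CD164, a sialomucin of lysosomes and the cell surface, was at 25.7, 28.9 and 24.9 FPKM, PODXL at 14.7, 14.1 and 19.7 FPKM, and OVGP1 at 3.72, 2.52 and 3.04 FPKM. None of them changed at least 2-fold, and 7 of the 13 were at 0 in all libraries.

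Genes within 200 kb of the mucin clusters were examined after the data were seen. Next to MUC2, MUC5AC and MUC5B, the protein-coding genes past the filter (CHID1, AP2A2 and TOLLIP) had log2 ratios between -0.34 and 0.12 in clone 1 and between -0.14 and 0.16 in clone 2, beside -0.56 for MUC5AC in clone 2. Around MUC3A, MUC12 and MUC17, 12 protein-coding genes had log2 ratios between -0.60 and 0.20 in clone 1 and between -0.36 and 0.31 in clone 2. On the same scale, which shrinks ratios of low genes, MUC12 had 0.17 and MUC3A 0.11 in clone 1, inside the range of these neighbours. Around MUC4 and MUC20, 2 of 11 genes past the filter were protein-coding, PPP1R2 and TNK2, and had log2 ratios between 0.02 and 0.16 in clone 1 and between -0.08 and 0.19 in clone 2. Over all 11 genes, most of them pseudogenes and non-coding RNAs, the range was -0.02 to 0.96 in clone 1 and -0.23 to 1.77 in clone 2. The highest were MIR570 (0.96 and 0.34) and the pseudogene AC233280.19 (0.66 and 1.77). This pseudogene, at 0.155, 0.826 and 2.93 FPKM, passed the filter only through clone 2, so its rise there was built into its selection.

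Some low genes of the brush border list had the order of MUC2. CDHR5, a mucin-like protocadherin of microvilli, was at 0.229 FPKM in the wild type, 1.80 in clone 1 and 0.0271 in clone 2. MYO7B, a myosin of microvilli tips, was at 0.0239, 0.846 and 0.00714 FPKM. Both were named after their values were seen, and MYO7B had 10, 265 and 3 reads. Other low genes of the list had other orders, such as MSN (0, 4 and 29 reads), USH1C (7, 6 and 11) and PDZK1 (19, 10 and 19). Without a pseudocount, 4 of 14 list genes, VIL1 included, were at least 2-fold higher in clone 1 and 0 lower. Of all genes with at least 20 reads, 6.54% and 6.23% were. In clone 2, 3 of 14 were at least 2-fold lower and 1 higher, where 6.82% and 7.35% of all genes were.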
